A study of Xenopus laevis with 14 samples.

Results

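Neuralized animal caps of Xenopus laevis were sequenced as RNA under replicate numbers 1 and 2, and the libraries numbered 2 were compared with those numbered 1 within each of 4 constructs. All 4 groups carried injected noggin RNA and were treated with retinoic acid (RA). They differed in what else was injected, which was nothing more in the first group, prdm12 RNA in the second, RNA of a fusion of prdm12 with the activating domain of VP16 in the third and RNA of a fusion with the engrailed repressor (engR) in the fourth. RNAs were injected at the 2-cell stage and the ectoderm was cut out near stage 10 and cultured. The comparison took 8 of the 10 RNA libraries (14 samples in the series), and the other 2 RNA libraries, from untreated caps, were set beside it. Of 19921 genes in the table, 12476 reached a mean of at least 10 normalized reads over the 8 libraries and entered the test, 7445 fell below that level, and 3492 of these were 0 in all 8. The labels give a replicate number and nothing on what it marks, such as a clutch, a day or a preparation, so p-values measure only how far the difference between numbers exceeded its spread over the 4 constructs, which may be technical. Both libraries of a pair carry the same construct by their titles. The treatment field of prdm12-engR replicate 1 names VP16, whereas its title names engR, and en1 stood at 268 in that library against 264 in prdm12-engR replicate 2 and 1.15 and 1.96 in the prdm12-VP16 libraries.

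The animal cap is the roof of the blastula, whose cells take an epidermal fate when BMP signals reach them. Noggin binds BMPs outside the cell and so turns caps to neural tissue, and retinoic acid shifts that tissue toward hindbrain and spinal cord. In such tissue, dividing progenitors that express Sox2 and Sox3 leave the cell cycle, pass through a proneural and Notch-regulated step and then turn on the cytoskeletal, synaptic and ion channel genes of neurons. The neural marker sox2, a progenitor transcription factor, ranged from 1211 to 1919.8 in the replicate 1 libraries and from 1164 to 1336 in replicate 2, against 160.1 and 62.4 in untreated caps. The epidermal keratin krt12 lay between 109 and 1644 in the 8 neuralized libraries, with both highest values in prdm12-engR, against 283374 and 242427 in untreated caps. Levels throughout are normalized reads per gene, and where 4 levels are listed they follow the order noggin and RA alone, prdm12, prdm12-VP16, prdm12-engR. Changes are log2 differences of (level + 1), replicate 2 minus replicate 1, averaged over the 4 pairs and given ± SE (n = 4 pairs). The SE is the moderated one of limma, whose variance is drawn toward a trend over all genes. It is thus not the plain SE of the 4 differences. A gene is said to be called, or to have risen or fallen, when its Benjamini-Hochberg adjusted p from limma was under 0.05 over all 12476 genes.

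The libraries held between 11986697 and 15893668 reads on genes, with no consistent order between the numbers (2 of 4 pairs had more reads in replicate 2). In every pair, replicate 2 had the smaller share of reads on its 10 most abundant genes (8.15% to 8.82% against 8.86% to 9.54%) and on cytosolic ribosomal protein genes (6.88% to 9.32% against 7.98% to 10.8%). Of 39 small nucleolar RNA genes tested 12 fell and 0 rose, while over all genes 20.3% fell and 25.2% rose. Split into 4 equal groups by genomic span, genes of short span were lower more often and genes of long span higher more often. Among the genes of shortest span (median 4095 bp) 14.9% rose and 26.3% fell, and among those of longest span (median 55823 bp) 38.2% rose and 12.02% fell. The part of these library properties in the results below was not tested.

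Replicate number separated the libraries broadly. Of the 12476 genes, 5674 were called (45.5%), 3144 higher in replicate 2 (25.2%) and 2530 lower (20.3%). The difference had the same sign in all 4 pairs for 7434 genes (59.6%), and for 2888 genes (23.1%) all 4 libraries of one number lay above all 4 of the other. Over all genes the median difference was 0.05. Construct accounted for 63.4% of the variance over the 8 libraries, replicate number for 27.4% and the remainder for 9.28%. In 4837 genes (38.8%) replicate number accounted for more than construct. These shares were not adjusted for the number of levels, 4 for construct and 2 for replicate number, which by itself favours construct. The first principal component (53.9% of variance) ran from prdm12-VP16 over noggin and prdm12 to prdm12-engR under both numbers, and the second (27.4%) was higher in replicate 2 of each pair. The spread of differences over genes was widest in the prdm12-VP16 pair (SD 1.07) and narrowest in the prdm12-engR pair (SD 0.70), with 0.86 and 0.92 in the noggin and prdm12 pairs. Thus 25.6% of genes differed at least 2-fold between the prdm12-VP16 libraries and 12.6% between the prdm12-engR libraries. The count of calls fell to 2849 without the noggin pair and to 3181 without the prdm12 pair, whereas it was 4741 without prdm12-VP16 and 6027 without prdm12-engR. Of these, 1641, 1734, 2714 and 3335 in turn were higher in replicate 2 and 1208, 1447, 2027 and 2692 lower. Counts of list members without 1 pair, given below, are to be read beside these. In bulk libraries such as these, fewer cells of a type and less RNA per cell cannot be told apart.

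**Figure D1:**
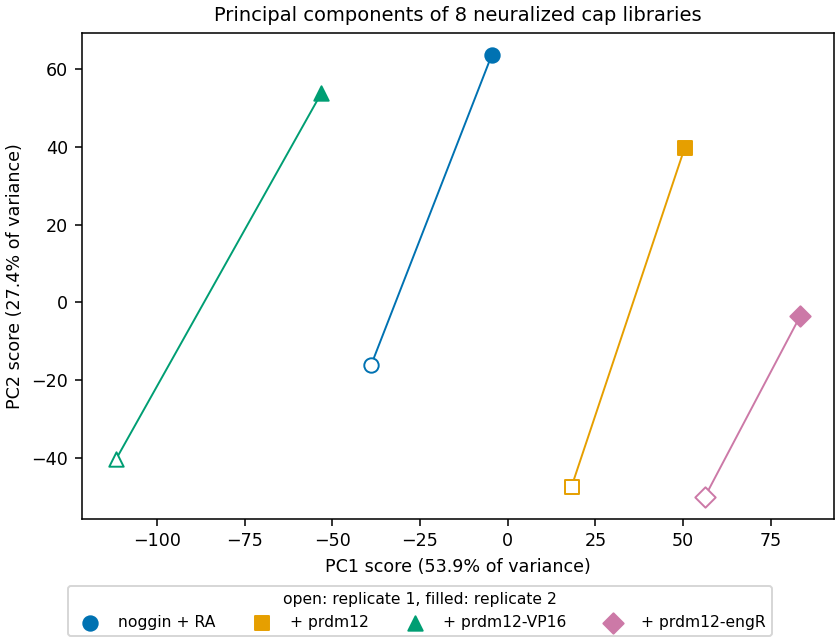
Scores of the 8 neuralized libraries on the first and second principal components of log2(level + 1) over 12476 genes, with a line joining the 2 libraries of each construct, open for replicate 1 and filled for replicate 2. In each of the 4 pairs the filled symbol lies above and to the right of the open one.

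The genes with the largest rises were a mixed group. The mitochondrial ADP/ATP carrier gene slc25a4 (ENSXETG00000025740) had 4.88, 4.62, 9.21 and 8.34 normalized reads in replicate 1 and 75.3, 178, 71.7 and 186 in replicate 2 (log2 difference 3.96 ± 0.37, adjusted p = 0.00185). The gene fkbp7, for a peptidyl-prolyl isomerase of the endoplasmic reticulum, had 7.32, 4.62, 23.0 and 26.1 in replicate 1 and 187, 219, 229.7 and 108 in replicate 2 (log2 difference 3.77 ± 0.51, adjusted p = 0.00307). Both sets of libraries were fully separated for these 2 genes. The homeobox gene gsx1, which marks dorsal progenitors of the neural tube, had 9.76, 12.01, 0 and 23.98 against 199.9, 107, 69.7 and 40.2 (log2 difference 3.54 ± 0.79, adjusted p = 0.0131), also with no overlap, and its call was lost without the noggin pair. The calcium channel gene cacna1f ranged from 2.09 to 3.45 in replicate 1 and from 25.5 to 64.4 in replicate 2 (log2 3.41 ± 0.34), and tapbp, a chaperone of MHC class I loading, from 3.70 to 9.21 and from 41.3 to 74.6 (log2 3.0002 ± 0.26). The collagen gene COL4A4 (log2 3.93 ± 0.60), the neurite membrane protein gene islr2 (log2 3.39 ± 0.44), the alpha-kinase gene alpk3 (log2 3.19 ± 0.44) and the glycosyltransferase gene abo (log2 3.16 ± 0.38) were also among the largest rises. The lipoprotein gene APOB rose in every pair, but its level also differed between constructs, with 0.810, 18.5, 1.15 and 62.6 in replicate 1 and 13.4, 244, 17.7 and 358 in replicate 2 (log2 3.07 ± 0.27), and the libraries of the numbers overlapped. The gene nbea, for a neuronal scaffold protein of membrane traffic, went from 108, 128, 80.6 and 118 to 577, 799, 507 and 477 (log2 difference 2.42 ± 0.14, adjusted p = 0.00161).

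The largest fall was that of frzb, a secreted inhibitor of Wnt signalling. It had 935, 404, 1177 and 163 normalized reads in replicate 1 and 9.20, 11.6, 30.4 and 19.6 in replicate 2 (log2 difference -4.94 ± 0.51, adjusted p = 0.00201). The proton channel gene otop2 fell from 181, 145, 57.6 and 28.2 to 1.67, 3.3, 2.95 and 6.18 (log2 difference -4.27 ± 0.63, adjusted p = 0.00381), and the one-carbon enzyme gene bhmt fell from 320.3, 229, 282 and 189 to 19.2, 19.0, 21.6 and 8.24 (log2 difference -3.88 ± 0.20, adjusted p = 0.00157). None of these genes showed overlap between the numbers. Genes of blood leukocytes were among the largest falls. The granule enzyme myeloperoxidase, mpo, had 30.1, 226, 62.2 and 78.2 against 2.51, 7.43, 0 and 11.3 (log2 difference -4.14 ± 0.56, adjusted p = 0.00308), and the leukocyte tetraspanin cd53 had 288, 639, 317 and 440.1 against 10.0, 25.6, 14.7 and 195 (log2 difference -3.70 ± 0.58, adjusted p = 0.00449). The urea cycle enzyme arg1, also known from macrophages, had 2062, 3388, 5725 and 960.4 against 66.1, 173, 114 and 663 (log2 difference -3.85 ± 0.77, adjusted p = 0.00921). Unlike mpo and cd53, arg1 was also high in untreated caps, at 4468 and 2208 in replicates 1 and 2. There mpo had 9.26 and 5.47 and cd53 13.2 and 3.28, and the cells that held arg1 RNA were not tested. For cd53 and arg1 the prdm12-engR library was the highest of the 4 in replicate 2, at 195 and 663. The hexose transporter gene slc2a6 (log2 -3.46 ± 0.52), the vasoactive peptide gene edn1 (log2 -3.46 ± 0.72), the ciliary gene PIFO (log2 -3.70 ± 0.47) and the nuclear receptor gene pparg (log2 -2.42 ± 0.17) also fell. In all 4 pairs, 34 genes differed at least 4-fold in one direction, 15 higher in replicate 2 and 19 lower. In the untreated pair 9 of the 34 differed at least 4-fold in that direction (6 higher) and 0 in the opposite one. Among those 9 were cacna1f (15.9 and 85.3 in untreated replicates 1 and 2), fkbp7 (94.0 and 408), tapbp (6.62 and 41.6), APOB (1.32 and 118), otop2 (17.2 and 0) and the Polycomb-associated gene phf19 (631 and 121). Of these 6, phf19 was chosen after its values were seen.

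Genes of the cell cycle fell together. Of 43 S phase genes tested, 36 fell and limma called 0 higher, with a median of -0.95 against 0.05 over all genes. Of 46 mitotic genes, 35 fell and 0 were called higher (median -0.97). At an unadjusted p under 0.05, 1 S phase gene and 0 mitotic genes were higher, and among calls edgeR gave 0 and 0 and DESeq2 1 and 0. Cyclin A2, ccna2, which drives S phase and entry to mitosis, had 726, 842, 1437 and 669 normalized reads in replicate 1 and 219, 209.8, 398 and 231 in replicate 2 (log2 difference -1.78 ± 0.11, adjusted p = 0.00185). The mitotic cyclin ccnb2 had 602, 528, 878 and 407 against 179.9, 165, 250.3 and 151 (log2 difference -1.66 ± 0.11, adjusted p = 0.00185), and the polo kinase plk1, needed for the spindle, had 1857, 1400.5, 2343 and 1258 against 638, 568, 943 and 521 (log2 difference -1.35 ± 0.09, adjusted p = 0.00185). Every replicate 1 library lay above every replicate 2 library for these 3 genes, and the step lay between log2 -1.999 (ccna2, prdm12) and -1.27 (plk1, prdm12-engR) in every pair. The cyclin-dependent kinases cdk1 (log2 -0.93 ± 0.12) and cdk2 (log2 -1.65 ± 0.21), the F-box cyclin gene ccnf (log2 -1.67 ± 0.13), the proliferation antigen mki67 (log2 -0.98 ± 0.19), the spindle motor kif2c (log2 -1.29 ± 0.13) and the import factor kpna2 (log2 -1.47 ± 0.15) fell without overlap as well. The F-box gene skp2, whose product marks the inhibitor p27 for destruction, fell from 35.0, 37.9, 29.9 and 59.4 to 1.67, 3.3, 8.84 and 8.24 (log2 -2.82 ± 0.40).

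Genes of the replication machinery were mostly lower in replicate 2. The helicase subunit mcm4 had 1208, 1329, 1805 and 1112 against 279, 235, 533 and 569.8 (log2 difference -1.83 ± 0.24, adjusted p = 0.00277). The sliding clamp pcna had 1447, 1549, 3057 and 1745 against 791, 717, 1623 and 1016 (log2 difference -0.92 ± 0.09, adjusted p = 0.00185), and its prdm12-VP16 library of replicate 2, at 1623, lay within the replicate 1 range. Falls of similar size were found for mcm2 (log2 -0.96 ± 0.09), mcm5 (log2 -0.83 ± 0.12), the clamp loader subunit rfc4 (log2 -1.16 ± 0.14) and the nucleotide enzyme dhfr (log2 -1.73 ± 0.21). Taken by symbol after the values were seen, 8 of 9 MCM genes and 12 of 15 genes for replication factor C, replicative polymerases and primase fell, with 5 MCM falls left without the noggin or the prdm12 pair. All 16 cell cycle genes named here stayed called when any 1 pair was left out, and the number of falls was then 27 to 36 in the S phase list and 35 to 37 in the mitotic list.

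**Figure D2:**
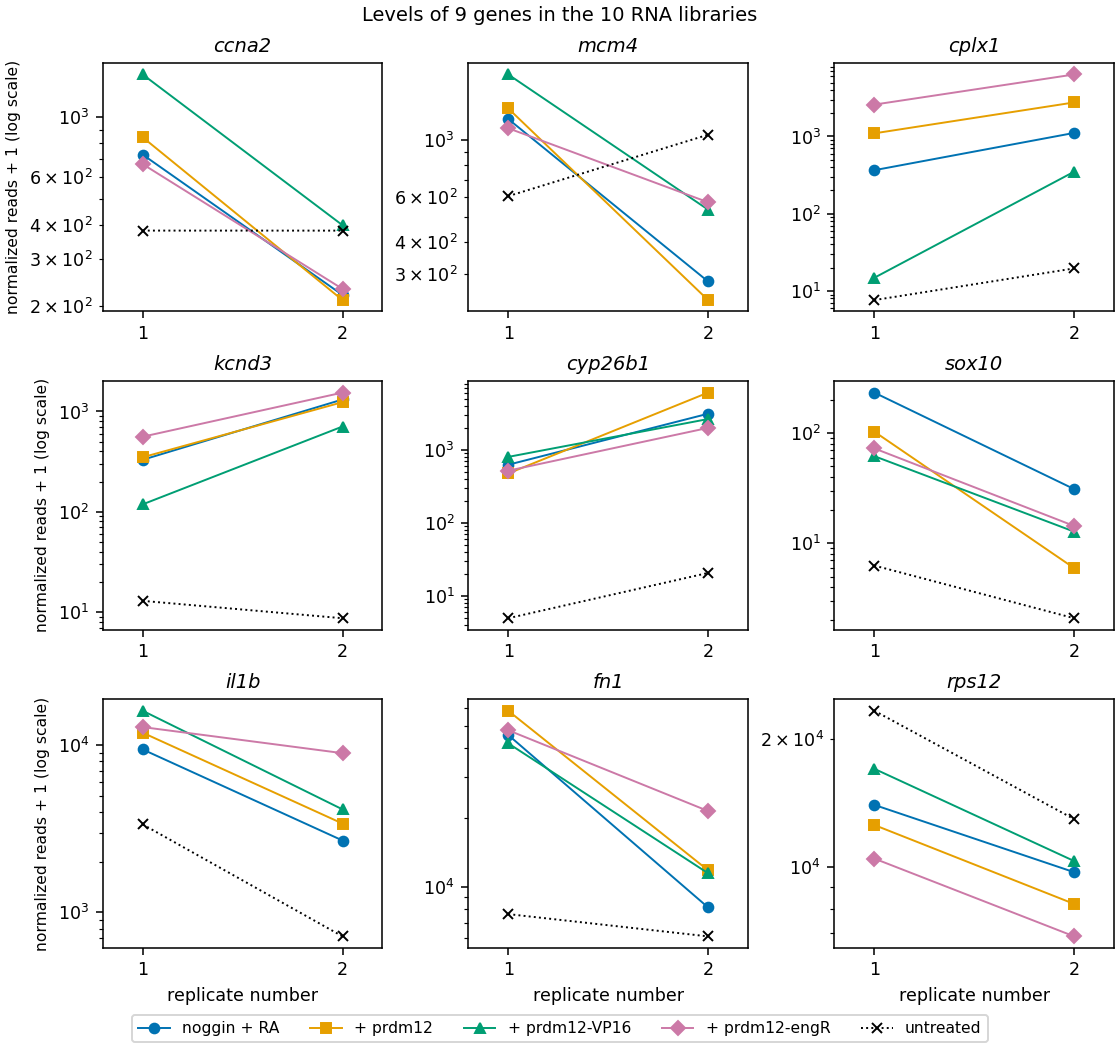
Level of 9 genes (normalized reads + 1, log axis) in replicate 1 and replicate 2, with solid lines joining the 2 libraries of each neuralized construct and a dotted line for untreated caps. In neuralized caps ccna2, mcm4, sox10, il1b, fn1 and rps12 are lower in replicate 2 and cplx1, kcnd3 and cyp26b1 higher, and in untreated caps mcm4 runs from 602 to 1048.

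Genes of neuronal differentiation were more often higher than lower in replicate 2. Of 42 list members tested, 24 rose and 1 fell, with a median of 0.86. Complexin 1, cplx1, which clamps synaptic vesicle fusion, had 365, 1097, 13.8 and 2586 normalized reads in replicate 1 and 1112, 2759.6, 349.5 and 6356 in replicate 2 (log2 difference 2.199 ± 0.54, adjusted p = 0.0176). The neurofilament relative ina had 264, 608, 11.5 and 1299 against 1289, 1972, 622 and 3198 (log2 difference 2.73 ± 0.67, adjusted p = 0.0179), and the reticulon rtn1 had 1006, 1779, 145 and 3615 against 2449, 3809, 1166 and 6498 (log2 difference 1.56 ± 0.34, adjusted p = 0.0119). For these 3 genes the prdm12-VP16 library of replicate 1 was the lowest of the 8, and the levels of the 2 numbers overlapped. The RNA-binding protein elavl3 of early neurons rose without overlap, from 1515, 1589, 1269.9 and 1790.5 to 3250.1, 2849.7, 3349.8 and 2311 (log2 difference 0.93 ± 0.16, adjusted p = 0.00622). The transcription factor ONECUT2 (log2 1.00 ± 0.13), the microtubule protein map1b (log2 0.75 ± 0.10), the splicing factor celf5 (log2 1.00 ± 0.15), the calcium sensor of release syt1 (log2 1.27 ± 0.20) and the axonal motors kif5c (log2 1.93 ± 0.31) and kif1b (log2 1.43 ± 0.12) rose too. The SNARE gene snap25 (log2 difference 0.84 ± 0.28, adjusted p = 0.0461), the neurofilament gene nefm (log2 difference 0.86 ± 0.28, adjusted p = 0.0426) and the vesicle protein gene syp (log2 0.78 ± 0.26, adjusted p = 0.04998) stood close to the threshold. The member that fell was neurog3, a proneural factor, from 8.94, 47.1, 35.7 and 35.5 to 0.840, 1.65, 9.82 and 13.4 (log2 difference -2.43 ± 0.51, adjusted p = 0.0105). The later factor neurod1 was not called (log2 difference -0.20 ± 0.15, adjusted p = 0.313).

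The list moved furthest in the prdm12-VP16 pair and least in the prdm12-engR pair. Its median was 0.77 in the noggin pair, 0.64 in prdm12, 1.67 in prdm12-VP16 and 0.30 in prdm12-engR. The summed level was higher in replicate 2 of all 4 pairs, at 93370 to 257849 against 29948 to 227522 in replicate 1. Without the noggin pair 12 members were called higher and without the prdm12 pair 16. Calls of ina, snap25, nefm and syp were lost without the noggin pair, and those of snap25, nefm and syp also without the prdm12 pair.

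Families of ion channels and synaptic proteins, taken by symbol after the values were seen, were also more often higher than lower. Of 60 potassium channel genes tested 29 rose and 6 fell (median 0.63), of 22 voltage-gated calcium channel genes 13 rose and 1 fell (0.88), and of 9 sodium channel genes 6 rose (0.97). The A-type potassium channel gene kcnd3 had 328, 348, 117 and 559 normalized reads against 1316, 1237, 707 and 1541 (log2 difference 1.97 ± 0.18, adjusted p = 0.00185), with no overlap. The leak channel KCNK3 (log2 1.45 ± 0.17), the M-type channel KCNQ5 (log2 1.89 ± 0.20) and the sodium channel scn3a (log2 1.00 ± 0.22) rose. The calcium channel that fell was cacna1s, the skeletal muscle form, with 102, 83.1, 93.3 and 103 against 42.7, 36.3, 39.3 and 23.7 (log2 difference -1.43 ± 0.21, adjusted p = 0.00387). Among receptors, 5 of 9 GABA-A and glycine receptor genes rose, whereas the 6 of 23 glutamate receptor genes that rose were a share of 26.1%, near the 25.2% of all genes. Receptor genes that rose included the NMDA subunit grin2a (log2 2.22 ± 0.28), the AMPA subunit gria2 (log2 0.76 ± 0.16) and the glycine receptor subunit glrb (log2 1.22 ± 0.24). Of 18 synaptotagmin, synaptogyrin, synaptophysin and synapsin genes 12 rose, and of 9 genes for complexins, SNAP25, syntaxin 1 and Munc13 proteins 7 rose. The calcium sensor syt2 had 161, 393, 26.5 and 429.6 against 637, 1360.4, 253 and 1382 (log2 difference 2.17 ± 0.26, adjusted p = 0.00244), and unc13c, a vesicle priming factor, had 23.6, 278, 9.21 and 457 against 397, 1647, 61.9 and 1419 (log2 difference 2.71 ± 0.35, adjusted p = 0.00277). Among adhesion and guidance genes, 9 of 16 protocadherin genes rose and 1 fell, with pcdhgc4 (log2 1.52 ± 0.15) as an example. Of 25 semaphorin and plexin genes 8 rose and 2 fell (32% and 8%), against 25.2% and 20.3% of all genes. The semaphorin receptor plxna2 (log2 1.14 ± 0.10) was among the rises.

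These family counts shrank most without the noggin or the prdm12 pair. Calls over all 12476 genes shrank as well, from 3144 higher to 1641 without noggin and 1734 without prdm12. Those lower went from 2530 to 1208 and 1447. The count of potassium channels called higher was 12 without the noggin pair and 17 without prdm12, that of calcium channels 3 and 4, and that of protocadherins 3 and 4. Glutamate receptors had 3 calls without the noggin or the prdm12 pair, and GABA-A and glycine receptors 3 without the prdm12 or the prdm12-engR pair. The synaptotagmin group had 7 calls without the noggin or the prdm12 pair, the complexin group 3 without either, and semaphorins and plexins 5 without prdm12. The falls among potassium channels numbered 0 without noggin and 2 without prdm12, those among semaphorins and plexins 0, 0 and 1 without noggin, prdm12 and prdm12-VP16, and the protocadherin fall was lost without any 1 pair. The call of gria2 was lost without the noggin pair.

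**Figure D3:**
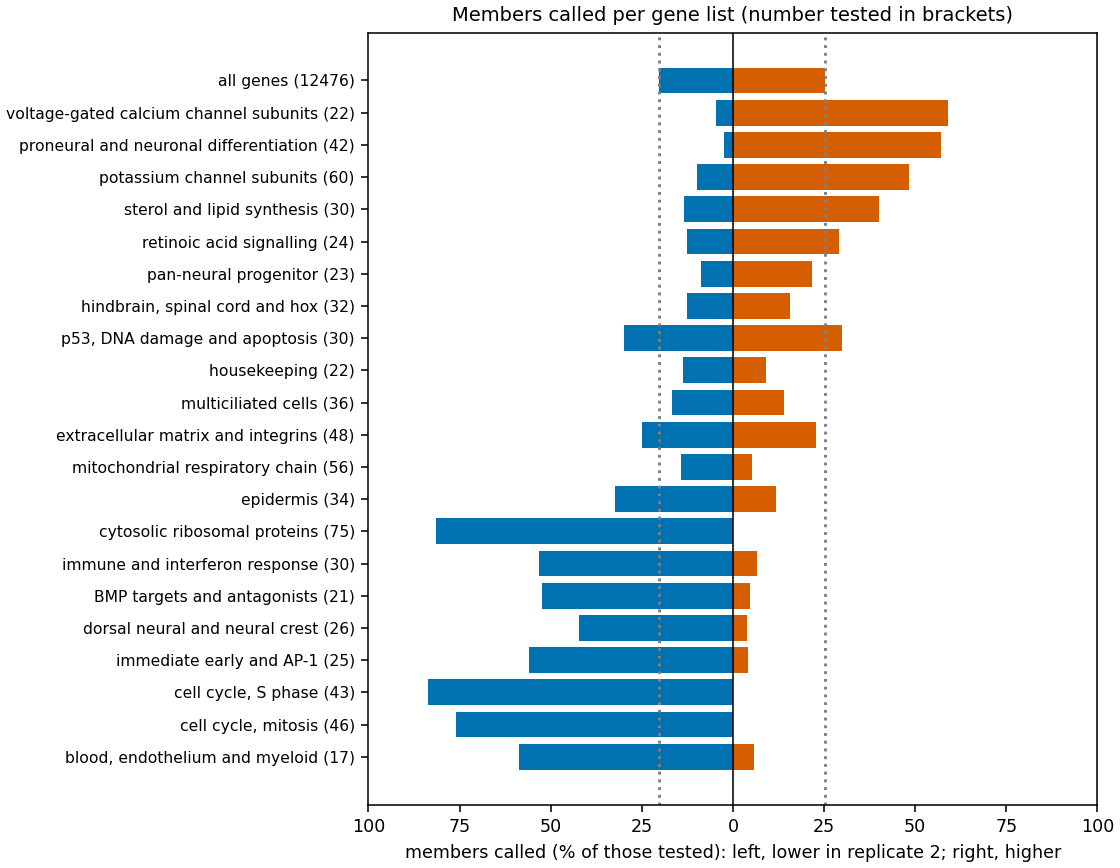
Share of tested members called in a selection of gene lists and families, higher in replicate 2 to the right and lower to the left, with dotted lines at the shares over all 12476 genes (25.2% and 20.3%) and the number tested in brackets. Of the groups plotted, S phase, ribosomal protein and mitotic genes reach furthest to the left, and calcium channels and neuronal differentiation furthest to the right.

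Among 23 genes listed as pan-neural, 5 rose and 2 fell (median 0.21), or 21.7% and 8.70% against 25.2% and 20.3% of all genes, and 16 were not called. The RNA-binding protein lin28b, an inhibitor of let-7 processing, rose from 150.4, 112, 161 and 118 to 254, 238, 292 and 223 (log2 difference 0.90 ± 0.12, adjusted p = 0.00305), and N-cadherin, cdh2, rose from 6100.2, 5669, 6009.9 and 5403 to 8679, 8231, 10461 and 6967 (log2 difference 0.55 ± 0.09, adjusted p = 0.00526), both with no overlap. The replication inhibitor geminin, gmnn (log2 -0.53 ± 0.14), and vimentin, vim (log2 -0.45 ± 0.12), were the 2 that fell. The progenitor genes sox2 (log2 difference -0.44 ± 0.15, adjusted p = 0.0549), sox3 (log2 difference 0.32 ± 0.19, adjusted p = 0.198) and msi1 (log2 difference 0.22 ± 0.10, adjusted p = 0.118) were not called. Without the noggin pair 2 members were called higher and 0 lower, without prdm12 2 higher, without prdm12-VP16 1 lower, and without prdm12-engR 9 higher and 3 lower. Calls of vim and gmnn were lost without the noggin pair, and that of gmnn also without prdm12-VP16.

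Of 32 hindbrain, spinal cord and hox genes 5 rose and 4 fell, or 15.6% and 12.5% against 25.2% and 20.3% of all genes. The most posterior of those named, hoxb9, fell from 122.8, 63.7, 146 and 104 to 35.1, 17.4, 38.3 and 28.9 (log2 difference -1.83 ± 0.16, adjusted p = 0.00185), whereas the hindbrain gene hoxb2 rose from 1935, 1484, 1455 and 1535 to 2825, 2637, 2811 and 1944 (log2 difference 0.67 ± 0.12, adjusted p = 0.00638). Both changes held with no overlap between the numbers, and hoxc4 was not called (log2 0.16 ± 0.10, adjusted p = 0.206). The counts for this list were sensitive to single pairs. Rises numbered 1 without the noggin or the prdm12 pair, 2 without prdm12-VP16 and 12 without prdm12-engR, and falls numbered 1 without noggin and 2 without prdm12 or without prdm12-engR. Of 24 genes of retinoic acid signalling 7 rose and 3 fell (29.2% and 12.5%), with 3 rises left without the noggin pair and 4 without prdm12. The RA-degrading enzyme cyp26b1 rose from 624, 474, 799 and 517 to 3116, 6063, 2636 and 1994 (log2 difference 2.41 ± 0.30, adjusted p = 0.00265), with every replicate 2 library above every replicate 1 library. The receptor rarb, itself an RA target, rose (log2 0.78 ± 0.15), and the transglutaminase tgm2 fell (log2 -1.26 ± 0.18). Its relative cyp26a1, another RA-degrading enzyme, was at 104884, 86035, 95374 and 71330.1 against 114095, 122528, 108255 and 55506 and was not called (log2 difference 0.11 ± 0.14, adjusted p = 0.529).

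Among 38 genes of interneuron and motor neuron types 8 rose and 5 fell, or 21.1% and 13.2% against 25.2% and 20.3% of all genes. Without the prdm12 pair 4 rises were left. The POU factor pou4f1 of sensory and dorsal neurons rose from 186, 59.1, 32.2 and 201 to 682, 314, 238 and 383 (log2 difference 2.01 ± 0.30, adjusted p = 0.00381), and lhx3 of V2 and motor neurons rose in every construct (log2 1.14 ± 0.18). In the V2b lineage, tal1 fell from 77.2, 72.1, 70.2 and 92.8 to 16.7, 15.7, 30.4 and 26.8 (log2 difference -1.80 ± 0.23, adjusted p = 0.00277) and gata3 fell from 93.5, 479, 32.2 and 1601 to 55.2, 276, 17.7 and 1097 (log2 difference -0.73 ± 0.12, adjusted p = 0.00526). The blood list also holds tal1, and the epidermal and BMP lists also hold gata3. Transporters of 3 transmitters rose, SLC18A3 for acetylcholine (log2 1.75 ± 0.33), slc6a5 for glycine (log2 1.24 ± 0.32) and slc17a6 for glutamate (log2 1.48 ± 0.32). The LIM factor lhx1 rose by 0.72 (adjusted p = 0.0449), a call that was lost without the noggin, the prdm12 or the prdm12-VP16 pair. The call of slc6a5 was lost without the noggin or the prdm12 pair, and that of slc17a6 without the prdm12 pair.

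Several marker genes with large differences between constructs were not called between replicate numbers. The injected factor's gene, prdm12, was at 29.3, 159.8, 379 and 262 against 77.8, 209, 250.3 and 159.7 (log2 difference 0.12 ± 0.35, adjusted p = 0.805), and which of its reads came from injected RNA was not tested. The V1 interneuron marker en1 was at 4.88, 482, 1.15 and 268 against 1.67, 299, 1.96 and 264 (log2 difference -0.35 ± 0.31, adjusted p = 0.383), high in prdm12 and prdm12-engR under both numbers. The inhibitory transporter slc32a1 was at 34.1, 4660.5, 17.3 and 5417 against 82.0, 3171, 52.0 and 5284 (log2 difference 0.55 ± 0.35, adjusted p = 0.236). For pax2, a factor of inhibitory interneurons (log2 difference 0.41 ± 0.16, adjusted p = 0.0792), prdm12 and prdm12-engR stood above the other constructs under each number, as they did for en1 and slc32a1. For nkx6-1, a ventral progenitor factor (log2 difference 0.08 ± 0.30, adjusted p = 0.844), they stood below the others under each number.

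Genes of neural crest and dorsal neural tissue were more often lower than higher. Of 26 tested 1 rose and 11 fell (median -0.80). The summed level was lower in replicate 2 of all 4 pairs (8803 to 10618 against 12552 to 21082). That of all 12476 genes was also lower in all 4 pairs (12133907 to 12815894 against 12914034 to 14035095). The crest factor sox10 had 233, 103, 61.0 and 71.95 normalized reads against 30.1, 4.96, 11.8 and 13.4 (log2 difference -2.91 ± 0.34, adjusted p = 0.0024). The pigment cell gene pmel had 394, 474, 1149 and 201 against 100.4, 77.6, 193 and 64.9 (log2 difference -2.18 ± 0.19, adjusted p = 0.00185), and the zinc-finger factor snai1 had 2593, 1728, 2930.1 and 2058 against 735, 909, 970.0 and 915 (log2 difference -1.38 ± 0.16, adjusted p = 0.00229). Each of these 3 showed no overlap between the numbers. The related factor snai2 (log2 -1.76 ± 0.28) fell as well, as did tfap2a (log2 -2.51 ± 0.47) and tfap2e (log2 -1.95 ± 0.17). The placode gene dlx5 also fell (log2 -2.34 ± 0.18). Of 21 BMP targets and antagonists 1 rose and 11 fell (median -0.63). The ligand bmp4 had 2247, 2714, 2494 and 1955 against 742, 804, 1679 and 1186 (log2 difference -1.16 ± 0.22, adjusted p = 0.00728), and bmp2 had 228, 261, 297 and 326 against 79.5, 90.9, 142 and 193 (log2 difference -1.21 ± 0.17, adjusted p = 0.00321), both with no overlap. The BMP target genes id2 (log2 -1.04 ± 0.14) and msx1 (log2 -1.80 ± 0.44) fell. The single rise of the crest list was lost without the noggin or the prdm12 pair. Without the noggin pair 7 of the BMP list were called lower, and the call of msx1 was lost without the noggin or the prdm12 pair.

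Epidermal genes, the markers of caps that are not neural, were called lower more often than higher. Of 34 tested 4 rose and 11 fell (median -0.28), or 11.8% and 32.4% against 25.2% and 20.3% of all genes. In that list 6 falls were left without the noggin pair and 1 rise without noggin or without prdm12. The simple keratin krt19 fell from 1517, 1374, 1462 and 1659 to 479, 652, 1016 and 709 (log2 difference -1.12 ± 0.18, adjusted p = 0.00455), with no overlap. The keratin krt12 was not called (log2 difference 0.21 ± 0.24, adjusted p = 0.508). E-cadherin, cdh1, fell (log2 -1.47 ± 0.38), and the claudins cldn6.1 (log2 -1.11 ± 0.12) and cldn6.2 (log2 -1.01 ± 0.15) fell among 5 of 10 claudin genes called lower. These 2 claudins are close paralogs. Reads not uniquely placed were totalled apart from genes, and whether all reads shared between the 2 were among them was not tested. The summed level of the epidermal list was lower in replicate 2 of all 4 pairs (28682 to 56717 against 38755 to 74062), as was that of all genes. The part of epidermal cells in the other differences was not tested. The call of cdh1 was lost without the noggin or the prdm12 pair.

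Genes of blood, endothelium and myeloid cells had a median of -1.60. Of 17 tested 1 rose and 10 fell. The endothelial factor etv2 had 108, 136, 57.6 and 127 normalized reads against 21.8, 49.6, 7.85 and 14.4 (log2 difference -2.37 ± 0.29, adjusted p = 0.00256), with no overlap, and the haematopoietic cofactor lmo2 had 339, 771, 404 and 1159 against 132, 113, 84.4 and 432 (log2 difference -1.94 ± 0.25, adjusted p = 0.00274). The myeloid factors cebpa (log2 -2.50 ± 0.34), spib (log2 -1.67 ± 0.24) and spi1 (log2 -2.30 ± 0.61) and the endothelial factor FLI1 (log2 -2.52 ± 0.55) fell. Among C/EBP and PU.1 family genes, taken by symbol after the values were seen, 5 of 6 fell, cebpd (log2 -1.06 ± 0.14) among them. The neutrophil collagenase mmp8, which is not in the blood list, had 10481, 29607, 14547 and 31360.3 against 847, 2237, 874 and 17877 (log2 difference -3.06 ± 0.51, adjusted p = 0.00533). In prdm12-engR it thus went from 31360.3 to 17877. The summed level of the blood list was lower in replicate 2 of all 4 pairs (3390 to 5495 against 4588 to 7286), as was that of all genes. The single rise was lost without the noggin, the prdm12 or the prdm12-VP16 pair. The call of FLI1 was lost without the noggin pair, and that of spi1 without the noggin or the prdm12 pair.

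Immune genes and immediate early genes were also more often lower than higher. Of 30 immune and interferon genes 2 rose and 16 fell (median -0.60). The inflammatory cytokine il1b had 9432, 11874, 16064 and 12831 normalized reads against 2690.4, 3397, 4129 and 8958 (log2 difference -1.52 ± 0.24, adjusted p = 0.00433), and tnf had 476, 552, 729 and 637 against 162, 149.5, 163 and 320.4 (log2 difference -1.64 ± 0.19, adjusted p = 0.00244). Complement c3, the central component of the cascade, had 53735, 64303, 94553 and 60549.5 against 15200.4, 16318, 23726 and 40348 (log2 difference -1.60 ± 0.24, adjusted p = 0.00383). For these 3 genes no library of replicate 2 reached the lowest of replicate 1, and in replicate 2 the prdm12-engR library was the highest. The flagellin receptor tlr5 (log2 -2.75 ± 0.36), the factor irf1 (log2 -1.37 ± 0.21), the NF-kB inhibitor and target nfkbia (log2 -1.15 ± 0.12) and the complement genes cfi (log2 -1.33 ± 0.17) and C8G (log2 -2.71 ± 0.29) fell. Of 25 immediate early and AP-1 genes 1 rose and 14 fell (median -0.82), with 7 falls left and no rise without the noggin pair. The cytokine signalling inhibitor socs3 had 4281, 3699.8, 9843 and 3780.2 against 1211, 900.3, 3145 and 2234 (log2 difference -1.57 ± 0.20, adjusted p = 0.0028), and zfp36, a factor that destabilizes cytokine RNAs, had 7834, 7257, 11225 and 8015 against 4217, 3619, 5461 and 5195 (log2 difference -0.89 ± 0.09, adjusted p = 0.00212). Both were separated with no overlap, and myc (log2 -1.06 ± 0.14) and jund (log2 -0.60 ± 0.09) fell too. The AP-1 genes jun (log2 difference -0.27 ± 0.09, adjusted p = 0.0512) and fos (log2 difference -0.93 ± 0.40, adjusted p = 0.0985) were not called.

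Ribosomal protein genes differed by a small and even step. Of 75 tested, 61 fell and limma called 0 higher, a count that was also 0 at an unadjusted p under 0.05, with edgeR and with DESeq2. They had a median of -0.35 and a range from -0.70 to 0.06. The medians of the 4 pairs lay between -0.36 and -0.31. The small subunit gene rps12 had 14015, 12571, 17034 and 10485 normalized reads against 9739, 8204, 10344 and 6884 (log2 difference -0.62 ± 0.07, adjusted p = 0.00247). It had no overlap between the numbers, whereas for the large subunit gene rpl3 (log2 difference -0.53 ± 0.10, adjusted p = 0.00646) the ranges met and for rpl12 (log2 -0.56 ± 0.09) they did not. The count of falls was 19 without the noggin pair and 28 without the prdm12 pair, and the median was -0.13 after quantile normalization of the libraries. Other translation genes lay on the same side, with 22 of 53 initiation factor genes lower and 2 higher, such as the cap-binding protein eif4e2 (log2 -0.83 ± 0.10) and the helicase eif4a1 (log2 -0.58 ± 0.13). Of 66 mitochondrial ribosomal protein genes 23 fell, such as MRPL47 (log2 -1.02 ± 0.13). The falls in these families numbered 3 and 6 without the noggin pair and 4 and 9 without the prdm12 pair, and those of mitochondrial ribosomal proteins 14 without prdm12-VP16. After quantile normalization the initiation factor median moved from -0.21 to -0.08. Of 56 respiratory chain genes 3 rose and 8 fell, such as cox5a (log2 -0.39 ± 0.08), and without the noggin pair both counts were 0, without prdm12 0 and 1 and without prdm12-VP16 1 and 2. Calls of eif4a1 and cox5a were lost without the noggin pair.

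**Figure D4:**
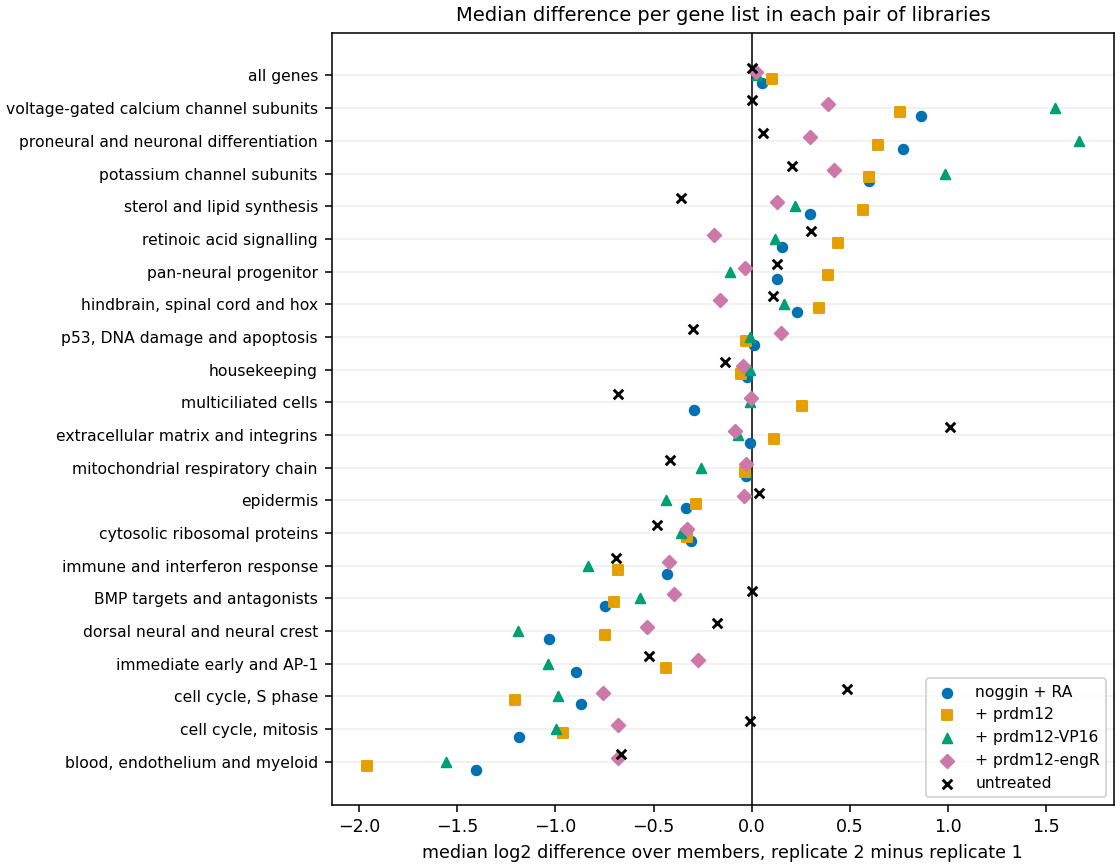
Median log2 difference (replicate 2 minus replicate 1) over the members of each gene list in each of the 4 neuralized pairs and in the untreated pair. Medians of the cell cycle lists lie at -0.68 or below in the neuralized pairs and at 0.49 and -0.01 in the untreated pair, and ribosomal proteins lie below 0 in all 5.

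Other lists were mixed or close to the share over all genes, with single genes that moved far. Of 30 genes of the p53 and DNA damage list 9 rose and 9 fell, or 30% and 30% against 25.2% and 20.3% of all genes. Cyclin G1, ccng1, a p53 target, had 3697, 3699.8, 5175 and 3780.2 normalized reads against 7638, 8799, 12855 and 10636 (log2 difference 1.28 ± 0.09, adjusted p = 0.00185), and the ribonucleotide reductase subunit rrm2b, another p53 target, had 52.0, 61.9, 23.0 and 81.3 against 148, 297, 79.5 and 295 (log2 difference 1.83 ± 0.17, adjusted p = 0.00185). The cell cycle inhibitor cdkn1a (log2 0.99 ± 0.23) and the polymerase polk (log2 1.23 ± 0.16) rose, and the p53 regulator mdm4 fell (log2 -0.93 ± 0.12). Falls in this list numbered 5 without the noggin pair, and the call of cdkn1a was lost without the prdm12 pair. Of 25 heat shock and folding genes 5 rose and 2 fell (20% and 8%), with 8 falls without the prdm12-engR pair. The co-chaperones dnajb1 (log2 1.34 ± 0.13) and dnajb6 (log2 1.099 ± 0.10) rose with no overlap and the co-chaperone ahsa1 fell (log2 -0.69 ± 0.12). Of 33 stress response genes 6 rose and 10 fell (18.2% and 30.3%). Among them were the sensor atf6, higher (log2 0.92 ± 0.10), and atf4 (log2 -0.58 ± 0.07) and the mTOR inhibitor ddit4 (log2 -1.21 ± 0.15), lower. In that list 2 rises and 6 falls were left without the noggin pair and 6 falls without prdm12.

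Metabolic genes moved in both directions. Of 36 glycolysis and hypoxia genes 10 rose and 5 fell, or 27.8% and 13.9% against 25.2% and 20.3% of all genes. The share of rises was thus near that of all genes. The hypoxia-responsive gene ndrg1 fell from 2809.8, 4156, 1426 and 9459 to 519.5, 1480.2, 171 and 3758 (log2 difference -2.08 ± 0.28, adjusted p = 0.00311), while the glycolytic enzyme pgam1 rose (log2 0.94 ± 0.13). Rises numbered 5 without noggin and 4 without prdm12, and falls 2 without noggin, 3 without prdm12 and 2 without prdm12-VP16. Of 30 sterol and lipid genes 12 rose and 4 fell (40% and 13.3%, median 0.30). In that list 6 rises were left without noggin, 4 without prdm12 and 8 without prdm12-VP16. The fatty acid elongase elovl6 rose (log2 1.51 ± 0.19) and mevalonate kinase, mvk, fell (log2 -1.52 ± 0.15). Among 22 housekeeping genes 2 rose and 3 fell (9.09% and 13.6%, median -0.01). The transferrin receptor tfrc was the larger of the rises (log2 1.32 ± 0.27), a call that was lost without the noggin or the prdm12 pair. Without the noggin pair the housekeeping list had 1 rise and 1 fall, without prdm12 1 rise, and without prdm12-VP16 5 falls.

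In the matrix and integrin list 11 of 48 genes rose and 12 fell, or 22.9% and 25% against 25.2% and 20.3% of all genes. Fibronectin, fn1, a matrix protein of the early embryo, fell from 45669, 58157, 42002 and 47868 to 8149.8, 11808, 11467 and 21355 (log2 difference -1.96 ± 0.21, adjusted p = 0.00213), with no overlap. The hyaluronan synthase has2 fell (log2 -2.45 ± 0.29), whereas the fibronectin receptor subunit itgav (log2 0.98 ± 0.10), the crosslinking enzyme lox (log2 1.57 ± 0.19) and the collagen col8a1 (log2 1.90 ± 0.15) rose. Taken by symbol, 11 of 23 collagen genes rose and 4 fell. For the matrix list 6 rises were left without the noggin or the prdm12 pair, and for collagens 6 rises without prdm12 or prdm12-VP16 and 2 falls without noggin. Of 16 clock genes the repressor nr1d2 rose from 61.8, 27.7, 52.96 and 31.3 to 146, 154, 156 and 88.6 (log2 difference 1.67 ± 0.23, adjusted p = 0.00313) and bhlhe41 fell from 446, 757, 446 and 436 to 44.3, 76.0, 96.2 and 211 (log2 difference -2.46 ± 0.38, adjusted p = 0.00419), and timeless, which also serves replication, fell (log2 -1.02 ± 0.11). The Wnt target sp5 fell (log2 -1.62 ± 0.20) among 38 Wnt genes of which 6 rose and 7 fell (15.8% and 18.4%). Rises there numbered 1 without noggin, 0 without prdm12 and 4 without prdm12-VP16.

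The untreated pair did not enter the tests above, and its replicate difference was compared with that of the neuralized pairs in 1 fit over all 10 RNA libraries. In that test 288 of 12476 genes (2.31%) differed, 175 with the untreated difference above and 113 with it below that of neuralized caps, and 3043 had an unadjusted p under 0.05. S phase genes mostly had the opposite sign in untreated caps. Of 43 S phase genes 39 had a positive difference in untreated caps (median 0.49), 36 of them being lower in the mean of the neuralized pairs, and 9 were called in the test of the difference, all 9 with the untreated value above. The helicase subunit mcm2 was at 307 and 802 in untreated replicates 1 and 2, and its difference exceeded that of neuralized caps by 2.34 (adjusted p = 0.0162). For mcm5 (357 and 1004) the excess was 2.32 (adjusted p = 0.0213), for pcna (916 and 1211) 1.32 (adjusted p = 0.0325), and for ccna2 (379.8 and 379.7) 1.78 (adjusted p = 0.028). Of the 46 mitotic genes 22 were higher and 24 lower in untreated replicate 2, and 3 were called, among them plk1, with an excess of 1.22 (adjusted p = 0.0374).

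Ribosomal protein genes were lower under number 2 in both settings. All 75 had a lower level in untreated replicate 2 (median -0.48). The share of reads on these genes went from 10.3% to 8.14% in untreated caps. In the neuronal list, 23 members were higher and 18 lower in untreated replicate 2 (median 0.06), and 3 were called in the test of the difference, 1 with the untreated value above. Untreated il1b went from 3360.1 to 718, tnf from 2042 to 404 and nfkbia from 9044 to 2083, the direction of the neuralized pairs, and immune genes as a list had a median of -0.69. Untreated snai1 was at 79.4 and 376, an excess of 3.61 (adjusted p = 0.0162), and both levels lay below those of every neuralized library. Matrix genes had an untreated median of 1.01 against -0.05 in neuralized caps, and has2 was at 1.32 and 26.3 with an excess of 6.003 (adjusted p = 0.0213). Because 1 untreated library stands under each number, its spread was taken from the neuralized pairs.

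**Figure D5:**
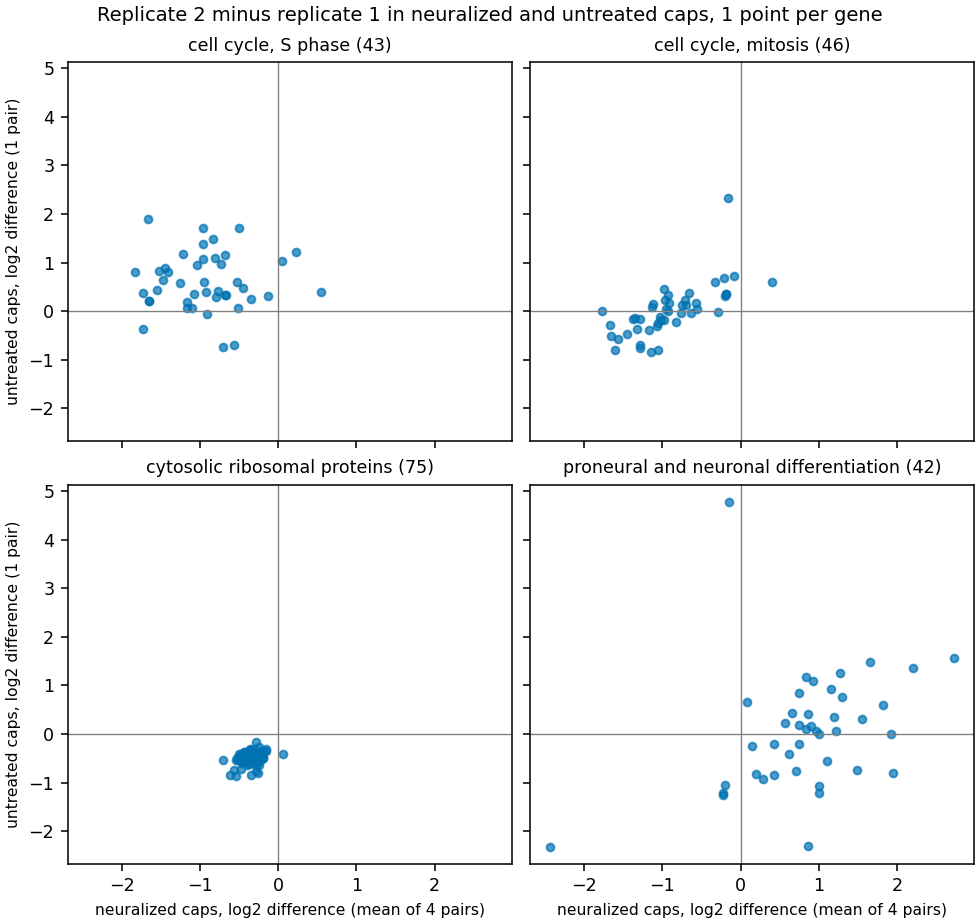
Log2 difference (replicate 2 minus replicate 1) of each member of 4 gene lists in neuralized caps (mean of 4 pairs, horizontal) and in untreated caps (1 pair, vertical). S phase genes lie mostly at upper left (36 of 43), mitotic genes to the left on both sides of 0, ribosomal protein genes at lower left (74 of 75) and neuronal genes mostly to the right.

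Replicate number also bore on the comparison of constructs. A moderated F test over the 4 constructs in the 8 libraries called 547 genes (4.38%) when replicate number was left out and 3825 (30.7%) with replicate number as a block. Across genes, replicate differences of 2 neuralized pairs correlated at Pearson r of 0.55 to 0.82 over 12476 genes, and those of the untreated pair with a neuralized pair at 0.22 to 0.26. These are descriptions over genes, which are not independent, and the pairs share the sequencing and normalization of 1 table.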

How the data were processed

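RNA was sequenced from animal caps with a non-stranded Illumina TruSeq mRNA kit, per the labels' protocols, so reads of overlapping or antisense genes cannot be told apart. The tools listed, with neither version nor role, were Bowtie2, Bowtie, HOMER and edgeR, per the submitters' processing notes. Of the genome build, the name is not given in the sources used here. Normalized read counts per gene for all 10 RNA libraries were deposited by the authors as 1 table, treated here as a signal that is never negative. Its genes carry X. tropicalis Ensembl identifiers, so both X. laevis homeologs share a line. Of its 19926 lines 5 are totals of reads outside genes and were left out. In neuralized libraries, reads not uniquely placed came to 23.8% to 34.2%, reads outside features to 10.4% to 11.1% and ambiguous reads to 0.0603% to 0.103% of the table's total. Every value in a library was a whole multiple of 1 read (100% within 0.05 of a read), which gave the depth.

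Libraries were assigned to groups by title. The untreated columns carry a code and were matched as the only ones naming no construct. Differences were fitted with limma 3.58.1 in R 4.3.3 on log2(value + 1) with an intensity trend and terms for construct and replicate number (3 residual and 3.64 prior degrees of freedom), over genes with a mean of at least 10 in the 8 libraries, with Benjamini-Hochberg adjustment. The fit was tested on simulated data. The log scale understates changes of low genes. Alternatives were edgeR 4.0.16 and DESeq2 1.42.0 on the recovered reads, other pseudocounts, filters, scalings and library weights, and fits without each pair. For the comparison of constructs, replicate number was the block in the alternative, since replicate differences of all 4 constructs correlated above 0.1 over genes (0.55 to 0.82). Genes named are up to 12 called genes with a symbol, the same sign in all 4 pairs and the largest differences per direction, up to 4 of smallest p per list, and prdm12, en1, nkx6-1, slc32a1, pax2 and cyp26a1, with others added after their values were seen. Members and lists were chosen with earlier results of these data known. Gene families by symbol, the test of the untreated pair and list counts without single pairs were added after seeing the data, and 1 complement gene, not called, was then removed from the crest list. A few members are not reported here. Errors cover these libraries only.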

Additional observations from a re-analysis of the deposited data

Results flagged for a closer look

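Among the 4 pair differences of a gene or list, 1 value stood apart from the other 3 (Dixon's test at 95% confidence) in 19 of 162 genes and 3 of 53 lists and families. The nominal rate is about 1 in 20, but it holds only for pairs of equal spread. Over all genes the SD was 0.70 in the prdm12-engR pair and 1.07 in the prdm12-VP16 pair. The genes were also selected and are not independent, so the counts are not a test against that rate. The pair that stood apart was prdm12-engR in 11 cases, prdm12-VP16 in 8, prdm12 in 2 and noggin in 1. In the prdm12-engR pair the log2 difference was smaller in size than in the others for the immune and myeloid genes cd53 (-1.17), mmp8 (-0.81), il1b (-0.52), nfkbia (-0.72) and c3 (-0.59), and for kif2c (-0.89), snai2 (-0.84) and tfrc (0.19). It was also apart for cacna1s (-2.08), cox5a (-0.23) and the median of semaphorins and plexins (0.12). In the prdm12-VP16 pair it was larger for the neuronal genes islr2 (5.02), cplx1 (4.56), snap25 (2.02) and glrb (2.21) and for the median of the synaptotagmin group (1.92), and apart for id2 (-1.55), dnajb6 (0.88) and the median of respiratory chain genes (-0.26). The prdm12 pair stood apart for tfap2e (-2.38) and elovl6 (1.999), and the noggin pair for plk1 (-1.54).

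The difference between replicate numbers in untreated caps departed from that in neuralized caps for 25 of the 162 genes (limma interaction term, adjusted over all genes). Values are the untreated difference minus the neuralized one, each from 1 untreated and 4 neuralized pairs. Cell cycle genes were above 0, with 1.78 (adjusted p = 0.028) for ccna2, 1.22 (adjusted p = 0.0374) for plk1, 2.34 (adjusted p = 0.0162) for mcm2, 2.32 (adjusted p = 0.0213) for mcm5 and 1.32 (adjusted p = 0.0325) for pcna. So were the crest, placode, epidermal and blood genes snai1, with 3.61 (adjusted p = 0.0162), dlx5, with 2.02 (adjusted p = 0.0371), krt19, with 2.36 (adjusted p = 0.0371), gata3, with 1.58 (adjusted p = 0.0374), and tal1, with 3.19 (adjusted p = 0.0448). The claudins gave 2.44 (adjusted p = 0.0171) for cldn6.1 and 2.73 (adjusted p = 0.0213) for cldn6.2. Further genes above 0 were bhmt, at 2.95 (adjusted p = 0.0388), tgm2, at 2.33 (adjusted p = 0.0426), ddit4, at 2.38 (adjusted p = 0.0266), and has2, at 6.003 (adjusted p = 0.0213). Below 0 were neuronal genes, with -2.22 (adjusted p = 0.0448) for ONECUT2, -2.07 (adjusted p = 0.0371) for celf5, -2.54 (adjusted p = 0.0371) for kcnd3, -3.61 (adjusted p = 0.0172) for pcdhgc4 and -2.19 (adjusted p = 0.0391) for nbea. Most of these are near 0 in untreated caps, where replicates 1 and 2 had 1.32 and 0 for ONECUT2, 2.65 and 3.28 for nbea, 7.94 and 1.09 for pcdhgc4 and 11.9 and 7.66 for kcnd3, so their value mainly restates the neuralized rise. Levels in untreated caps were low also for bhmt (9.26 and 4.38), tal1 (3.97 and 12.04), has2 (1.32 and 26.3) and slc25a4 (25.1 and 12.04). Also below 0 were slc25a4, at -4.97 (adjusted p = 0.0388), abo, at -5.22 (adjusted p = 0.0371), jun, at -1.27 (adjusted p = 0.0371), and ccng1, at -1.35 (adjusted p = 0.0302).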

How the results depend on the processing

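The 5674 calls (3144 higher, 2530 lower) became 583 (334 and 249) when a fold of at least 1.5 was tested and 1884 (1025 and 859) without pairing by construct. Leaving out 1 pair gave 2849 to 6027 (1641 to 3335 higher, 1208 to 2692 lower), with 2849 without the noggin pair and 3181 without prdm12. The other alternatives gave 4065 (untreated pair added) to 7482 (library weights), edgeR 5612, or 5606 without a filter, and DESeq2 5595. In none of these 19 settings did a call shared with the reported fit change sign, but such a change was hardly possible. The settings without the intensity trend, without pairing or with a tested fold keep the same differences, and the others share most libraries. Constructs differed in 547 genes without and 3825 with replicate number as a block, and the replicate test itself is paired by construct. Of the 5674 calls, 2832 were kept without the noggin pair, 3145 without prdm12, 4502 without prdm12-VP16 and 5175 without prdm12-engR. Of the 148 called genes named here, 129 stayed called whichever 1 pair was left out. Among these 148, 17 were lost without noggin, 11 without prdm12, 2 without prdm12-VP16 and 0 without prdm12-engR. Many were named for a large difference or small p in the full fit, so their share kept does not stand for all calls. Of the genes named here, only 3 that were not called changed direction. They were prdm12, which had -0.31 without the noggin pair, 0.39 without prdm12-engR and -0.37 with the untreated pair, nkx6-1, with -0.0066 after quantile normalization, -0.14 with library weights, -0.098 without prdm12, -0.21 without prdm12-VP16 and 0.34 without prdm12-engR, and cyp26a1, with -0.019 without prdm12 and 0.27 without prdm12-engR. Quantile normalization moved the median of all genes from 0.05 to -0.01 and turned that of placode genes from -0.02 to 0.11, and median ratio scaling turned that of heat shock genes from 0.02 to -0.01. The causes were not tested. At these depths a gene at 10 normalized reads rests on about as many reads, so low genes carry the widest error.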

Other observations

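Further gene groups had few calls or calls in both directions. Shares of rises and falls in brackets are to be read against 25.2% and 20.3% of all genes. Of 36 genes of multiciliated cells 5 rose and 6 fell (13.9% and 16.7%, median -0.05), both below the shares of all genes. In untreated caps 31 of the 36 were lower in replicate 2 (median -0.68). In that list 2 rises and 2 falls were left without the noggin pair, 1 and 3 without prdm12, and 3 rises without prdm12-VP16. Mesoderm and muscle genes had 4 rises and 8 falls among 31 (12.9% and 25.8%). There were 0 rises without prdm12 or prdm12-VP16 and 4 falls without noggin or prdm12. Among 18 endoderm genes 2 rose and 4 fell (11.1% and 22.2%). There was 1 fall without noggin, and without prdm12 or without prdm12-VP16 there were 2 falls and 1 rise. Among 18 germ plasm and maternal genes 2 rose and 6 fell (11.1% and 33.3%), with 1 rise without noggin, prdm12 or prdm12-VP16. Its falls include plk1 and kpna2, named above among cell cycle genes, so they are not a separate result. Feedback genes of FGF and MAP kinase signalling had 2 rises and 8 falls among 23 (8.70% and 34.8%), with 1 fall without noggin and 3 without prdm12. Among 16 Notch genes 2 rose and 5 fell (12.5% and 31.25%). There were 0 rises and 3 falls without noggin, 1 rise without prdm12 and 6 rises without prdm12-engR. Placode and sensory neuron genes had 5 rises and 3 falls among 23 (21.7% and 13.0%), with 2 rises without noggin and 3 without prdm12 or prdm12-engR. Of 8 histone genes tested 4 fell (50%) and 0 rose. The 4 that fell code for variant histones, so they do not stand for the histones made in S phase.

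Of 31 genes of the kinesin family of motor proteins, taken by symbol after the values were seen, 11 rose and 8 fell. These were 35.5% and 25.8%, against 25.2% and 20.3% of all genes. The axonal motors kif5c (log2 1.93 ± 0.31) and kif1b (log2 1.43 ± 0.12) were among the rises and the mitotic motor kif2c (log2 -1.29 ± 0.13) among the falls. Without the noggin pair 7 rises and 5 falls were left. Of 13 complement genes 1 rose and 6 fell, and the rise was lost without the noggin pair. Of 13 mitochondrial transfer RNA genes 5 rose and 1 fell, beside 25.2% and 20.3% of all genes.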
